A study of Mus musculus with 7 samples.

Results

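Brachyury (T), Mixl1, Eomes, Mesp1, Mesp2, Evx1, Gsc, Fgf8, Hand1 and Foxf1 are genes of the primitive streak and of the first mesoderm that leaves it. These 10 genes, of 21887 protein-coding genes in the gene table used here, were taken by name, and the peaks of 4 lists were sought in each gene body, within 10 kb of it and within 50 kb of it. The lists come from chromatin immunoprecipitation with sequencing (ChIP-seq) of mouse embryonic stem cells (ESCs) labelled as parental in genotype. They give Oct1 (gene Pou2f1) in undifferentiated ESCs, Oct4 (gene Pou5f1) in undifferentiated ESCs, and Oct1 at day 3 and at day 6 of mesodermal differentiation. Per the series text, mesodermal cultures received Bmp4 in N2B27 medium during the first 2 days and Rspo3 together with the BMP receptor inhibitor LDN-193189 during the following 4 days. The series text describes differentiation of depleted cells, whereas the sample labels give the parental genotype throughout, and the labels were followed. Each group had 1 library, so no difference between groups could be set against replicate error and no test between them was made. Peak lists hold no expression values, so the identity of the cells could not be checked against marker genes.

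The primitive streak is the region of the gastrulating embryo where epiblast cells move inwards and become mesoderm or endoderm. Nodal, Wnt and BMP signals switch on T-box, homeobox and basic helix-loop-helix regulators there, and Smad proteins carry the Nodal and BMP signals to the DNA. Oct4 keeps ESCs pluripotent, whereas Oct1 is widely expressed, and both are POU-domain proteins that bind the octamer sequence. The series title places Oct1 beside Smad factors in mesodermal specification, and the comparison below is of where Oct1 was listed near streak regulators before and during differentiation.

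The lists held 17709 peaks for ESC Oct1, 22817 for ESC Oct4, 4867 for Oct1 at day 3 and 7758 for Oct1 at day 6. A score percentile below is the share of a list's peaks with a lower score than the peak in question, with ties shared, so it ranks a peak within its own list and says nothing about levels between lists. Distances run from the edge of a peak to the edge of the gene body. Positions are 1-based and read as GRCm38, the build that the submitters' processing notes name as mm10. The gene table gives no exons, so a peak inside a gene cannot be placed in an exon or intron.

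Peaks of both factors in ESCs lay outside the bodies of these genes. Over all genes, 23.9% had an ESC Oct1 peak in the body and 28.0% an ESC Oct4 peak. Among genes no longer than T (8074 bp) these shares were 8.0% and 9.74%. The day 6 Oct1 list reached 1 of the genes within 10 kb, against 41.5% of all genes. Within 10 kb, ESC Oct1 peaks were listed at 5 of the 10 genes (Eomes, Mesp2, Evx1, Hand1 and Foxf1), or 50% with a 95% interval of 18.7 to 81.3, while 35.2% of all protein-coding genes had such a peak. ESC Oct4 peaks were listed at 4 genes (Eomes, Mesp2, Evx1 and Hand1; 40%, 12.2 to 73.8), against 40.2% of all genes. At day 3, Oct1 peaks were listed at 3 genes (Eomes, Fgf8 and Foxf1; 30%, 6.67 to 65.2), against 24.6% of all genes. At day 6 there was 1 gene, Foxf1 (10%, 0.253 to 44.5), against 41.5% of all genes. With 10 genes, each interval contained the share of all genes, so no share was separable from its background at this number of genes.

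Within 50 kb, both ESC lists reached 9 of the 10 genes (90%, 55.5 to 99.7), Mixl1 being the exception, where 58.7% of all genes had an ESC Oct1 peak and 62.5% an ESC Oct4 peak. Day 3 Oct1 peaks lay within 50 kb of 5 genes, namely T, Eomes, Fgf8, Hand1 and Foxf1 (50%, 18.7 to 81.3), against 41.5% of all genes. Day 6 Oct1 peaks lay within 50 kb of those 5 genes and of Mixl1, which makes 6 (60%, 26.2 to 87.8), against 57.9% of all genes. In the gene body itself, 0 of the 10 genes had a peak of either ESC list, which allows a share of 0 to 30.8%, and 23.9% of all genes had an ESC Oct1 peak there and 28.0% an ESC Oct4 peak. At day 3 the bodies of Fgf8 and Foxf1 overlapped a peak (2 of 10, against 17.7% of all genes), and at day 6 that of Foxf1 did (1 of 10, against 33.6%). Among genes no longer than T, a body peak was listed at 8.0% for ESC Oct1, 9.74% for ESC Oct4, 9.55% at day 3 and 19.2% at day 6. These counts move with the lengths of the lists. With every list shortened to its 4867 highest scores, the genes reached within 50 kb were 5 for ESC Oct1, 5 for ESC Oct4, 5 at day 3 and 4 at day 6. Within 10 kb they were 2, 2, 3 and 1 in the same order. These shortened-list counts have no share of all genes at the same list length beside them, so they were not compared with a background. The members have short bodies, from 1350 bp for Mesp1 to 8074 bp for T, whereas the median over all genes was 17169 bp. Among genes no longer than T, the share with a peak within 10 kb was 22.4% for ESC Oct1, 27.0% for ESC Oct4, 17.2% at day 3 and 28.9% at day 6. Within 50 kb it was 48.9% for ESC Oct1, 53.6% for ESC Oct4, 34.2% at day 3 and 45.2% at day 6. Mesp1 and Mesp2 share sites, so the 10 genes are not independent, and with the pair counted as 1 locus each ESC list reached 8 of 9 loci within 50 kb (88.9%, 51.8 to 99.7). Set against these intervals, the ESC shares of all genes (58.7% and 62.5%) lay inside both. The shares among genes no longer than T lay below the interval over 10 genes for both ESC lists. Over 9 loci the ESC Oct1 share (48.9%) lay below the interval and the ESC Oct4 share (53.6%) inside it. The day 3 and day 6 shares lay inside the intervals over 10 genes. The members were chosen with earlier results of these data known, so these positions are a description and no test of enrichment.

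**Figure D1:**
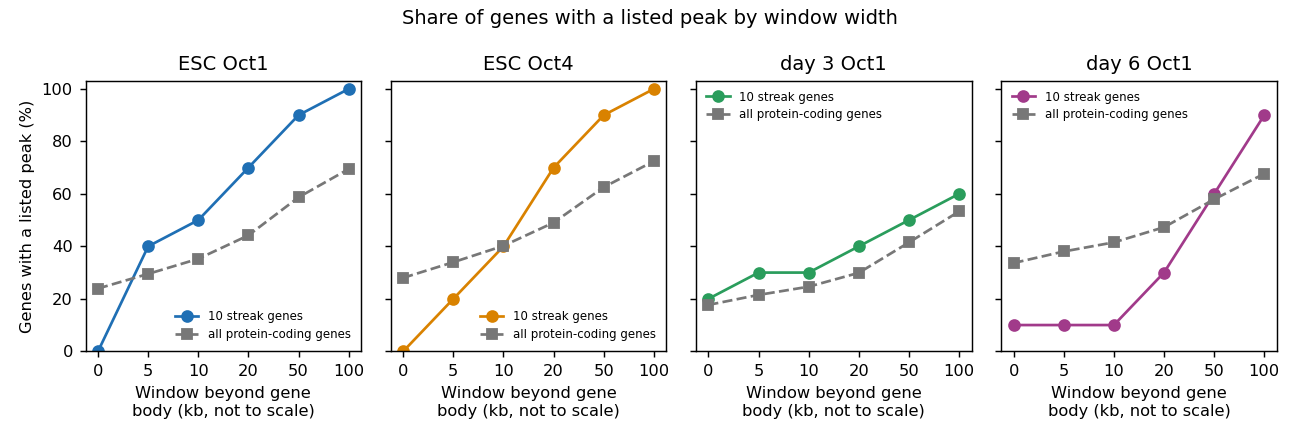
Share of genes (percent, vertical axis) with a listed peak in the gene body widened by the distance on the horizontal axis (kb, not to scale), with 1 panel per list. Coloured circles stand for the 10 streak and early mesoderm genes and grey squares for all protein-coding genes; at day 6 the 10 genes stay at 10% up to 10 kb and reach 60% at 50 kb.

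Fgf8 (gene ID 14179, chr19:45736491-45742941) encodes the only secreted ligand among the 10, a fibroblast growth factor that streak cells need in order to migrate. The day 3 list held an Oct1 peak over the higher-coordinate end of the gene, chr19:45742761-45743270, with score 434, rank 886 and percentile 81.8. No ESC list and no day 6 list had a peak within 10 kb of Fgf8. In ESCs a site 26.5 kb beyond the other end carried overlapping peaks of Oct1 (score 80, percentile 31.1) and Oct4 (score 104, percentile 25.9), both low in their lists. A further site, 40.3 kb away at day 3 (score 440, percentile 82.2) and 39.7 kb away at day 6 (score 845, percentile 72.0), was centred 29 bp and 329 bp from an end of the neighbouring gene Oga. The Oct1 peak at the end of Fgf8 itself was therefore listed at day 3 and at no other stage.

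Among the T-box factors, T (gene ID 20997, chr17:8434423-8442496) is the classical gene of the streak and notochord. It had no peak within 10 kb in any of the 4 lists. The nearest site lay 13.3 kb downstream and was listed for Oct1 in ESCs (chr17:8455751-8456400, score 44, percentile 4.14) and, overlapping it, at day 3 (chr17:8455631-8456230, score 111, percentile 27.9). Another 2 downstream peaks were close to each other without overlapping, 26.1 kb away in ESCs (score 217, percentile 81.4) and 24.2 kb away at day 3 (score 141, percentile 36.9). Upstream of T, 18.3 kb away and inside the neighbouring gene T2, one site held an ESC Oct1 peak (score 92, percentile 42.3), an ESC Oct4 peak (score 204, percentile 77.7) and a day 6 Oct1 peak (score 145, percentile 13.2), but no day 3 peak. Thus 1 downstream site of T was listed for Oct1 in ESCs and at day 3, and 1 upstream site in ESCs and at day 6, while the other sites within 50 kb were each in 1 list.

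Eomes (gene ID 13813, chr9:118478186-118486132), the T-box factor that precedes Mesp1 in cardiac mesoderm and is needed for definitive endoderm, had the closest ESC site of the 10 genes. An ESC Oct1 peak lay 429 bp beyond its downstream end (chr9:118486561-118487230, score 122, rank 7381, percentile 57.5). The ESC Oct4 peak overlapping it lay 349 bp from the gene (chr9:118486481-118487160, score 234, rank 3443, percentile 84.8). At day 3 an Oct1 peak overlapped both (chr9:118486481-118487010, score 221, rank 2154, percentile 55.7). It was the only site within 50 kb of any of the 10 genes listed for both factors in ESCs and again at day 3. At day 6 it was not listed, and the nearest day 6 peak (score 256, percentile 25.3) lay 19.9 kb away, centred 99 bp from an end of Golga4.

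Of the homeobox genes, Mixl1 (gene ID 27217, chr1:180693043-180697034), a paired-type factor of the streak, was the gene with fewest peaks within 50 kb. Neither ESC list nor the day 3 list had a peak within 50 kb of it. The single day 6 peak, 28.7 kb away with score 435 and percentile 43.3, was centred 43 bp from an end of Acbd3. Gsc (gene ID 14836, chr12:104471209-104473236), a repressor of the anterior streak and organizer, had no peak within 10 kb and no day 3 or day 6 peak within 50 kb. Its ESC peaks formed a cluster downstream of the gene, from 30.4 to 36.7 kb away, with 4 Oct1 and 3 Oct4 peaks, and a single further Oct1 peak lay 34.7 kb upstream (score 204, percentile 79.5). The strongest site of the cluster had an Oct1 peak at chr12:104440031-104440810 (score 496, rank 875, percentile 95.1) and an overlapping Oct4 peak at chr12:104440071-104440620 (score 390, rank 653, percentile 97.1), the highest percentiles of either ESC list within 50 kb of the 10 genes. The Oct4 peak 36.6 kb away (score 293, percentile 92.3) also overlapped an Oct1 peak (score 156, percentile 69.7), as did that 32.1 kb away (score 84, percentile 13.9, against score 71 and percentile 22.6 for Oct1). The cluster lies between Gsc and Serpina3n, and its peaks are nearer to the latter.

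Evx1 (gene ID 14028, chr6:52313498-52318389) is an even-skipped homeobox gene of the posterior streak that lies next to the HoxA cluster, 52618 bp from Hoxa13. An ESC Oct4 peak lay 2.67 kb upstream (chr6:52310301-52310830, score 149, percentile 54.8), where no Oct1 peak was listed. Downstream, 4.73 kb from the gene, a weak ESC Oct1 peak (chr6:52323121-52323660, score 53, percentile 9.57) overlapped a weak ESC Oct4 peak (chr6:52323091-52323690, score 74, percentile 8.98). No day 3 or day 6 peak was listed within 50 kb. Just outside that distance, 52.1 kb away over Hoxa13, both later lists had a strong Oct1 peak, with score 872 and percentile 94.3 at day 3 and score 2848 and percentile 98.6 at day 6.

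Evx1 was also the only one of the 6 members with a promoter sequence in the RefSeq table (GRCm38.p6; T, Eomes, Mesp1, Mesp2, Evx1 and Gsc) to hold an exact octamer, ATGCAAAT on either strand, in the 300 bases from 250 before to 50 after its start. Its promoter is shown because the letters that POU proteins bind are present while no list has a peak on them. The capitals mark the octamer, which reads ATTTGCAT on the strand of the gene and begins at base 125 of chr6:52313248-52313547, plus strand:

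Evx1: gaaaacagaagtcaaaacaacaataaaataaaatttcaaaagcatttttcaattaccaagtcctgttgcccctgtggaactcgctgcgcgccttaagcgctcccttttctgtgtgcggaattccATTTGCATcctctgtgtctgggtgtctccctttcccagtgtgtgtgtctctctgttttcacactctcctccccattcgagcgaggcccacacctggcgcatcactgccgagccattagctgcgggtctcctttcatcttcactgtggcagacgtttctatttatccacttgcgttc

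The nearest peak to this window, the ESC Oct4 peak upstream, lay 2418 bp away. Of all 32851 promoter windows in the table, 1.74% held the octamer. The Smad palindrome GTCTAGAC, searched on both strands in the same way, was in none of the 6 windows and in 0.213% of all. None of the 6 windows overlapped a peak of any list, where overlap with ESC Oct1 peaks was found for 4.77% of all windows, with ESC Oct4 peaks for 3.70%, with day 3 peaks for 9.78% and with day 6 peaks for 21.4%. Among all windows overlapped by a peak, the octamer was in 6.19% for ESC Oct1, 2.39% for ESC Oct4, 3.58% at day 3 and 1.44% at day 6. A match of letters is a description of the sequence, and Mixl1, Fgf8, Hand1 and Foxf1 were not part of this search. Fgf8 and Foxf1, the only members whose bodies overlapped a listed peak, were thus also missing from the overlap count. That count therefore does not speak for all the members.

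The basic helix-loop-helix genes Mesp1 (gene ID 17292, chr7:79792241-79793590), which marks the earliest cardiac mesoderm, and Mesp2 (gene ID 17293, chr7:79810727-79813431), which sets somite boundaries, are neighbours 17137 bp apart. They shared 4 sites within 50 kb, and 2 further sites lay within 50 kb of Mesp2 alone. An ESC Oct1 peak lay 4.80 kb downstream of Mesp2 and 24.6 kb from Mesp1 (chr7:79818231-79818730, score 310, rank 1840, percentile 89.4), with no overlapping Oct4 peak. Its nearest gene was Anpep, 3073 bp away. An ESC Oct4 peak 8.50 kb downstream of Mesp2 was weak (chr7:79821931-79822510, score 76, percentile 10.2) and was centred 417 bp from an end of Anpep. The strongest shared site of the pair, inside Wdr93, had overlapping ESC peaks of Oct1 (score 319, percentile 89.8) and Oct4 (score 277, percentile 90.6), 19.0 kb from Mesp1 and 37.5 kb from Mesp2. No day 3 or day 6 peak lay within 50 kb of either gene.

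Hand1 (gene ID 15110, chr11:57828713-57832147), a basic helix-loop-helix factor of extraembryonic and lateral mesoderm, had the densest set of ESC peaks, with 9 for Oct1 and 8 for Oct4 within 50 kb. As many Oct1 peaks or more lay within 50 kb of 2.94% of all genes, and as many Oct4 peaks or more within 50 kb of 8.37%. The site nearest the gene, 8.10 kb away, held an Oct1 peak (chr11:57819971-57820610, score 341, rank 1576, percentile 91.1) and an overlapping Oct4 peak (chr11:57819991-57820570, score 306, rank 1568, percentile 93.1). A site 21.3 kb away on the other side also held both, with score 192 and percentile 77.7 for Oct1 and score 307 and percentile 93.4 for Oct4. These 2 sites, and another 25.1 kb away (percentile 64.1 for Oct1 and 52.7 for Oct4), are nearest to Hand1. Further sites with both factors lay inside Galnt10, 41.2 kb (percentile 50.1 for Oct1 and 35.1 for Oct4) and 43.2 kb away (percentile 12.2 and 79.6).

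After ESCs little of this was listed at Hand1. The day 3 list had 1 Oct1 peak, 44.1 kb away (chr11:57876241-57876820, score 130, percentile 33.6), which overlapped a weak ESC Oct1 peak (score 57, percentile 12.8). The day 6 list had 1 peak, 26.7 kb away (score 410, percentile 41.1), and it was centred 18 bp from an end of Sap30l. The strong ESC sites near the gene were in neither later list. In the whole ESC Oct1 list, 8.88% of peaks overlapped the day 3 list and 6.66% the day 6 list. For the whole ESC Oct4 list these shares were 4.27% and 4.39%.

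Foxf1 (gene ID 15227, chr8:121084386-121088154), a forkhead factor of the lateral plate and extraembryonic mesoderm, was the one gene with an Oct1 peak at its own end at day 3 and at day 6. The day 3 peak was at chr8:121083401-121084390, with score 403, rank 996 and percentile 79.5. The day 6 peak overlapped it at chr8:121083681-121084430, with score 373, rank 4857 and percentile 37.3. Neither ESC list had a peak at this site, and the only ESC peak within 10 kb, for Oct1, lay 3.69 kb beyond the other end, with score 48 and percentile 6.08, inside Mthfsd. The peak at the end of Foxf1 thus ranked high in the day 3 list and below the middle of the day 6 list.

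Around Foxf1 the ESC Oct1 peaks were numerous and low in their list. Within 50 kb there were 6 Oct1 peaks, at percentiles up to 39.5, and 4 Oct4 peaks, at percentiles up to 65.8. As many Oct1 peaks or more lay within 50 kb of 8.19% of all genes, and as many Oct4 peaks or more within 50 kb of 25.1%. Both factors overlapped 20.2 kb away (percentile 39.5 for Oct1 and 8.98 for Oct4), 44.9 kb away (12.8 and 23.6) and beyond Foxl1, where 1 Oct4 peak (percentile 65.8) overlapped 2 Oct1 peaks (17.4 and 22.6). At day 6 a stronger Oct1 peak lay 19.8 kb away (chr8:121107931-121108610, score 1178, percentile 84.6), centred 143 bp from an end of Mthfsd, and it is also within 10 kb of Foxc2, another forkhead gene of the mesoderm. The remaining day 3 peak, inside Mthfsd, had percentile 3.84, and the remaining day 6 peak, 1725 bp from Foxl1, had percentile 45.1.

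**Figure D2:**
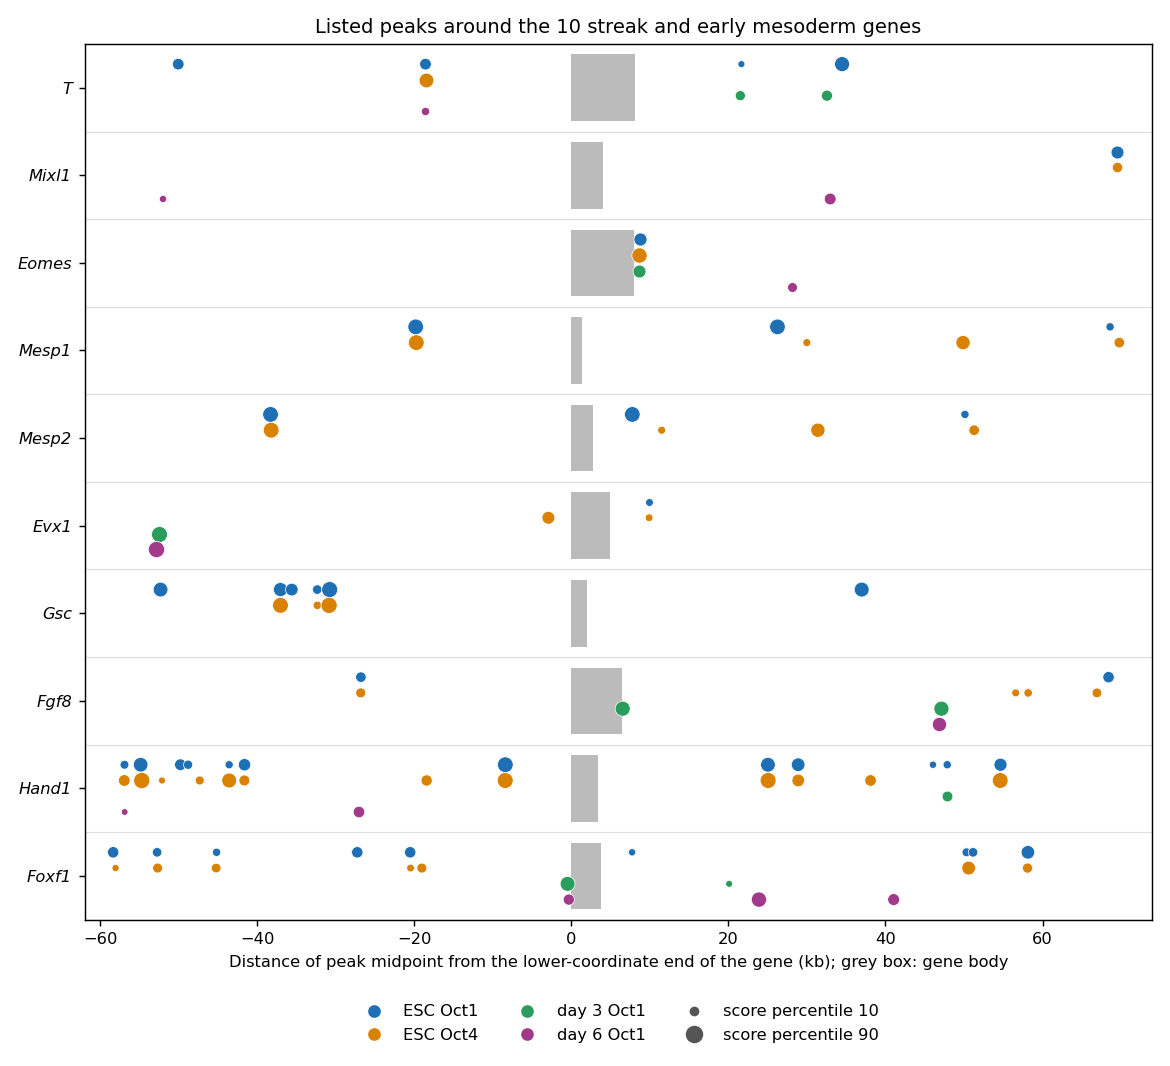
Midpoints of the listed peaks around each of the 10 genes, by distance (kb) from the lower-coordinate end of the gene, with grey boxes for gene bodies, 1 row of points per list and larger points for higher score percentiles. ESC peaks (blue and orange) flank 9 genes within 50 kb, where 58.7% of all genes had an ESC Oct1 peak and 62.5% an ESC Oct4 peak. Day 3 (green) and day 6 (purple) points lie on the end of Foxf1. A day 3 point lies on the end of Fgf8 and another just beyond Eomes. Further day 3 or day 6 points lie within 50 kb of T, Mixl1, Eomes, Fgf8, Hand1 and Foxf1.

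**Figure D3:**
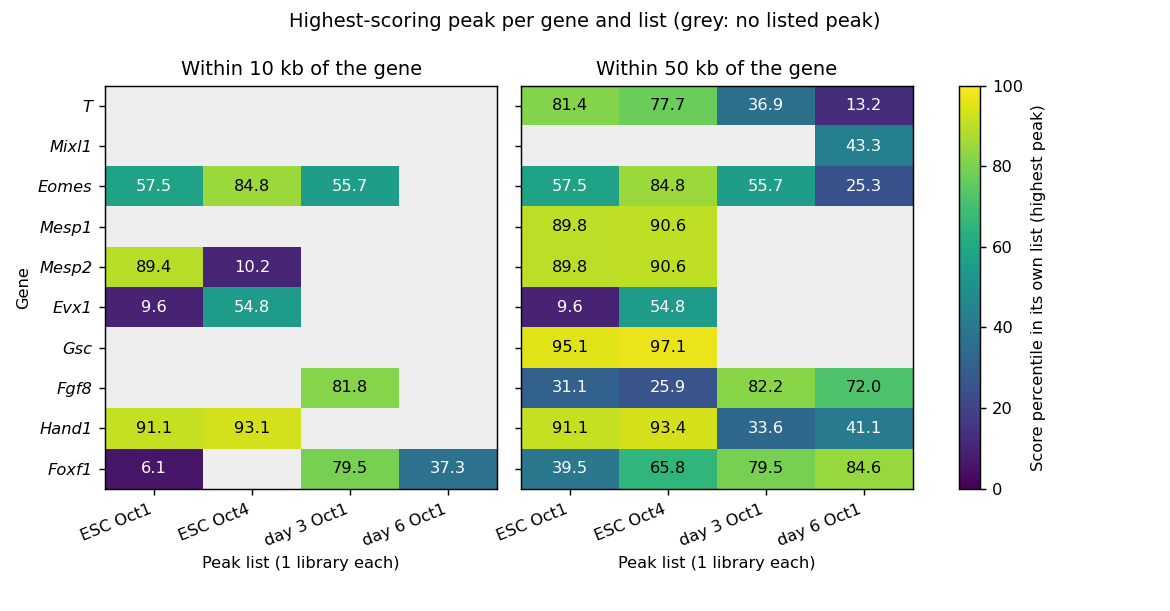
Score percentile, within its own list, of the highest-scoring peak within 10 kb (left) and within 50 kb (right) of each gene, with columns for the 4 lists (1 library each) and grey where no peak was listed. The highest ESC values are at Gsc (95.1 and 97.1, beyond 10 kb) and Hand1 (91.1 and 93.4), and the highest day 3 value within 10 kb is at Fgf8 (81.8).

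Grouped by the lists that reached them within 10 kb, Eomes, Mesp2, Evx1 and Hand1 shared peaks of both factors in ESCs, and of these Eomes alone had one at day 3. Foxf1 was reached by all 3 Oct1 lists, though at another site in ESCs than later, and Fgf8 by the day 3 list only. T, Mixl1, Mesp1 and Gsc had none (40%, close to the 36.5% of all genes). Peaks in ESCs alone were listed at 30% of members, against 17.9% of all genes. Peaks in ESCs and later were listed at 20%, against 28.6%, and only later at 10%, against 17.0%. Within 50 kb, T, Eomes, Fgf8, Hand1 and Foxf1 had peaks in all 4 lists. Mesp1, Mesp2, Evx1 and Gsc had them in both ESC lists alone, and Mixl1 at day 6 alone. The shares of all genes with these combinations within 50 kb were not counted. A few peaks lay close to the limits of these windows. The farthest inside 10 kb was the Oct4 peak 8.50 kb from Mesp2, and the nearest outside were those of T at 13.3 kb (ESC Oct1) and 13.1 kb (day 3). Near 50 kb, an ESC Oct1 peak of T at 49.8 kb and an ESC Oct4 peak of Fgf8 at 49.7 kb fell inside, whereas ESC peaks of Hand1 at 50.9 kb for both factors and a day 6 peak of Mixl1 at 51.7 kb fell outside.

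When overlapping peaks were merged, 48 distinct sites lay within 50 kb of the 10 genes. Both factors held 14 of them in ESCs alone, Oct1 alone 11 and Oct4 alone 9. Only day 6 Oct1 peaks held 5 sites, only day 3 peaks 3, and both later lists shared 2, at the ends of Foxf1 and Oga. The sites listed in ESCs and again later were 4 in number, namely the downstream sites of Eomes and of T and the distant Hand1 site at day 3, and the upstream site of T at day 6. Of the 30 ESC Oct1 peaks, 17 (56.7%) overlapped the ESC Oct4 list, 3 (10%) the day 3 list and 1 (3.33%) the day 6 list. For the whole ESC Oct1 list these shares were 59.1%, 8.88% and 6.66%. The share near these genes was close to that of the list for Oct4 and day 3, and for day 6 it rests on 1 peak. Of the 25 ESC Oct4 peaks, 16 (64.0%) overlapped an Oct1 peak, where the whole list had 46.0%. Of the 8 day 3 peaks, 2 (25%) overlapped a day 6 peak, against 58.5% in the whole list.

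The day 6 peaks near these genes lay at gene ends about as often as those of the whole list, and mostly at ends of neighbours. Of the 8 day 6 peaks within 50 kb, 5 were centred within 1 kb of an end of another protein-coding gene (Acbd3, Golga4, Oga, Sap30l and Mthfsd) and 1 within 1 kb of an end of a member, Foxf1. Together 6 of the 8 were at a gene end, and in the whole day 6 list 71.7% of peaks were. Of the 8 day 3 peaks, 3 were at ends of members (Fgf8, Foxf1 and the downstream end of Eomes) and 1 at an end of another gene (Oga). In the whole day 3 list 53.2% were at gene ends, and either end of a gene counted. Of the 30 ESC Oct1 peaks, 3 were at gene ends, 1 of them at a member (Eomes), and of the 25 ESC Oct4 peaks 5 were, 1 of them again at Eomes, against 9.67% and 8.11% in the whole lists. With a peak counted only for the protein-coding gene nearest to it, the number of members with a day 6 peak within 50 kb fell from 6 (60%) to 1 (10%). Over all protein-coding genes the share fell from 57.9% to 35.1%. Under the same rule ESC Oct1 peaks were counted at 7 of the 10 members, against 32.7% of all genes. ESC Oct4 peaks were counted at 5 (against 36.7%) and day 3 peaks at 5 (against 20.3%). Within 50 kb, score percentiles ran from 4.14 to 95.1 for ESC Oct1 (median 40.8), from 8.98 to 97.1 for ESC Oct4 (41.1), from 3.84 to 82.2 at day 3 (46.3) and from 13.2 to 84.6 at day 6 (42.2).

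Genes that act before or beside these 10 were described in the same way from 3 fixed lists, within 10 kb. Of 24 signals and effectors upstream of the streak, 14 (58.3%) had an ESC Oct1 peak and as many an ESC Oct4 peak, while Oct1 was listed at 12 (50%) on day 3 and at 15 (62.5%) on day 6, each above the share of all genes given earlier. Their median body was 40090 bp, longer than the 17169 bp of all genes, and the part of gene length in these shares was not tested. Peaks in at least 3 lists were found at 11 of them, against 2 of the 10 members (Eomes and Foxf1) and 23.2% of all genes. The 11 were the ligands Wnt3 and Wnt3a, the Nodal antagonists Lefty1 and Lefty2, the receptors Acvr1b, Acvr2b and Fgfr1, and the effectors Smad2, Smad3, Ctnnb1 and Tcf7l1. At 6 others, Oct1 peaks were listed only after ESCs. These were Bmp4 (percentile 62.8 at day 3 and 18.5 at day 6), Foxh1, the Nodal pathway's forkhead cofactor of Smads (75.6 and 64.6), and, at day 6 alone, Smad4 (85.3), Smad5 (51.5), Acvr2a (31.0) and Bmpr1a (59.3).

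Of 24 other regulators of the streak and nascent mesoderm, ESC Oct1 peaks were listed at 7 (29.2%), ESC Oct4 peaks at 8 (33.3%), day 3 Oct1 peaks at 8 (33.3%) and day 6 Oct1 peaks at 11 (45.8%), where the shares of all genes were 35.2%, 40.2%, 24.6% and 41.5% in the same order. Their median body was 6955 bp. Peaks only after ESCs were listed at 7 of them. Tbx6, the T-box factor of paraxial mesoderm, had percentiles of 60.7 at day 3 and 91.5 at day 6, and Lhx1, a LIM homeobox gene of the anterior streak, 77.0 and 96.3. Cdx2 had a day 3 peak alone (83.3), Foxc2 (84.6, the peak described near Foxf1) and Mycn (9.16) a day 6 peak alone, and Evx2 and Gata6 had peaks at both times with percentiles of at most 21.9. Pdgfra, Isl1 and Tbx3 had peaks in 3 lists. Of 10 endoderm regulators of the anterior streak, 2 had an ESC Oct1 peak (20%) and 3 a peak in each of the other lists (30%), beside the same shares of all genes. Foxa2 was in 3 of the lists, with a day 3 peak at percentile 89.4, and Foxa1, Foxa3 and Gata6, which is in both gene lists, had peaks only after ESCs. Peaks only after ESCs were thus listed at 6 of 24, 7 of 24 and 3 of 10 genes in these lists, at 1 of the 10 members (Fgf8) and at 17.0% of all genes.

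**Figure D4:**
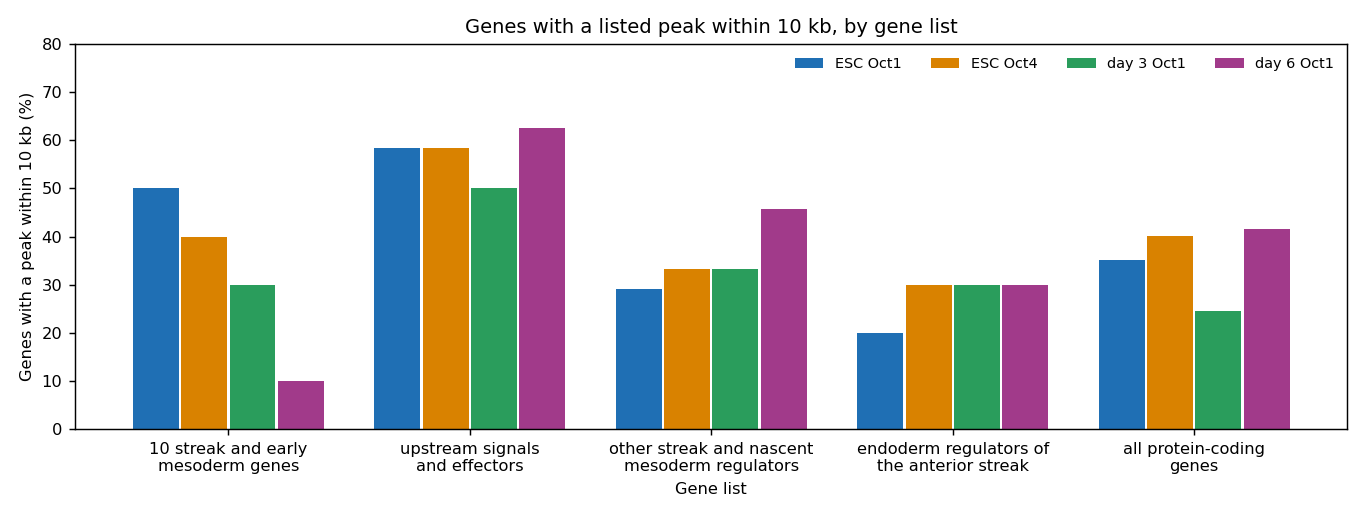
Share of genes (percent, vertical axis) with a listed peak within 10 kb, for the 10 streak and early mesoderm genes, 3 lists of related genes and all protein-coding genes, with 1 bar per peak list. The 10 genes run from 50% for ESC Oct1 to 10% for day 6 Oct1, an order that differs with lists of equal length (2 genes for ESC Oct1, 3 at day 3 and 1 at day 6), while the bars of the upstream signals lie between 50% and 62.5%.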

How the data were processed

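The genes were listed by name, and all 10 were found in a RefSeq gene table of GRCm38.p6. The members and gene lists were chosen with earlier results of these data known. Novoalign 3.8.2 and build mm10 (GRCm38) are named in the submitters' processing notes. The peak caller, its threshold and the use of the 3 inputs are not given in the sources used here. The authors deposited 1 peak list per ChIP library, with a whole-number score per peak and no stated unit, so the score served only to rank peaks within a list. The labels' protocols name a run of 100 M read pairs with 50 bp reads, but the lists hold no read counts, so the depth reached by each library is not known. A gene was counted when at least 1 bp of a peak fell in its body or within the window, with scipy 1.17.1, pandas 2.3.3 and numpy 2.4.6 under Python 3.11.15, and figures were drawn with matplotlib 3.10.9. The counting was tested on simulated peaks and gave the same 175096 gene counts as bedtools 2.31.1. Intervals are exact Clopper-Pearson 95% intervals and cover counting only. All 10 genes are named with every peak within 10 kb. Beyond that, out to 50 kb, a peak is named where it scored highest for its gene or overlapped another list, and genes of the other lists are named where they had a peak in at least 3 lists or only after ESCs. Score filters, the window, the placement of peaks, the background genes and the counting of Mesp1 and Mesp2 as 1 locus were varied.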

Additional observations from a re-analysis of the deposited data

How the results depend on the processing

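All alternatives were planned but 1, the counting of Mesp1 and Mesp2 as 1 locus, which was chosen after seeing the data, and 50 of 76 alternative values stayed within 1.5 times of the reported ones. With the upper 50% of scores in each list, ESC Oct1 kept 3 genes and 3 peaks within 10 kb and 12 peaks within 50 kb. Under the same filter ESC Oct4 had 3 peaks within 10 kb and 12 within 50 kb, day 3 had 3 genes and 4 peaks within 50 kb, and day 6 had 0 genes and 0 peaks within 10 kb and 2 genes and 2 peaks within 50 kb. It left 21 sites, 8 of them in more than 1 list. With every list shortened to 4867 peaks, the ESC Oct1 and ESC Oct4 lists each had 2 genes within 10 kb and 5 within 50 kb, against 3 and 5 at day 3 and 1 and 4 at day 6. Counts under the score filter and in the shortened lists were not compared with a share of all genes. With a peak counted only for its nearest gene, ESC Oct1 had 3 genes within 10 kb, against 28.4% of all genes under this rule. Within 50 kb ESC Oct1 had 7 (against 32.7%), ESC Oct4 had 5 (against 36.7%) and day 6 had 1 (against 35.1%). With the gene body alone, both ESC lists had 0 genes, day 3 had 2 and day 6 had 1. Within 10 kb the gene count of ESC Oct1 thus did not exceed that of day 3 under 4 of the alternatives. These were the shortened lists (2 against 3) and the upper 50% of scores (3 against 3), both without a share of all genes. The others were the gene body alone (0 against 2, beside 23.9% and 17.7% of all genes) and the nearest-gene rule (3 against 3, beside 28.4% and 19.2%). These are raw counts, and equal counts do not mean an equal standing against all genes. ESC Oct4 had 2 genes with a window of 5 kb (against 34.0% of all genes) and 7 with 20 kb (against 49.0%). Day 6 had 3 with 20 kb (against 47.3%). These shifts follow from how each alternative is built, since it keeps fewer peaks, changes the window, assigns a peak only to its nearest gene or changes the background genes. Among genes no longer than the longest member, the background for ESC Oct1 within 10 kb was 22.4% in place of 35.2%. No paired analysis was possible because each group had 1 library, and no replicate could be left out. The lists hold no read counts and their threshold is not given in the sources used here, so a gene without a listed peak cannot be called unbound.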
